A study of Mus musculus with 18 samples.

Results

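Blocking antibodies (BAs) against the receptors TNFR1 and TNFR2 of TNF were compared in the mutant progenitor cells of a mouse myeloproliferative neoplasm (MPN). The comparison held 6 of the 18 arrays of the series, 3 of the group TNFR2 BA, JAK2V617F+ and 3 of the group TNFR1 BA, JAK2V617F+, chosen by their sample titles and set against each other by replicate number over all 10335 probe sets of the deposited table. No untreated array entered it, so every difference is TNFR2 BA minus TNFR1 BA and shows neither antibody against untreated cells. In all 6 samples the donors of the bone marrow (BM) were Balb/c mice in which MPN had been induced with JAK2V617F, with no age stated for them. GFP expression identified the JAK2V617F cells. The cells were cultured for 16 h with SCF at 100 ng/mL, IL-3 at 50 ng/mL and 1 of the antibodies at 10 μg/mL, then sorted as Lin-Kit+ GFP+ cells. The JAK2V617F- cells used below for comparison were the GFP- part of such cultures. JAK2V617F in this model comes from a retroviral vector in transplanted cells, the BM of several mice was used in an experiment, and 3 independent experiments were performed, so the n of 3 counts experiments and not single mice.

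TNF acts through a pair of receptors. TNFR1, encoded by Tnfrsf1a, carries a death domain and can assemble either a signalling complex that activates NF-κB and JNK or a complex that activates caspase-8. TNFR2, encoded by Tnfrsf1b, lacks the death domain and recruits TRAF adaptors together with the cellular inhibitors of apoptosis. XIAP, the X-linked inhibitor of apoptosis, blocks caspases directly, and JAK2V617F is the activated kinase that drives most MPNs.

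The TNFR2 BA and TNFR1 BA arrays of JAK2V617F+ cells did not differ in any probe set at an adjusted p under 0.05. The limma fit with the replicate number as a block called 0 of 10335 probe sets, which is 0% of those tested, and its lowest adjusted p was 0.909. An unadjusted p under 0.05 was reached by 353 probe sets, 154 of them higher with TNFR2 BA (1.49%) and 199 lower (1.93%), where a rate of 5% would be 517 probe sets. A paired t-test by replicate number gave 404 probe sets at an unadjusted p under 0.05 and 0 after Benjamini-Hochberg adjustment, with a lowest adjusted p of 0.787. The study's methods name paired tests for JAK2V617F+ against JAK2V617F- cells of the same mice, a different contrast. The values of the 3 arrays per group did not overlap in 337 probe sets that were higher with TNFR2 BA (3.26%) and in 493 that were lower (4.77%). All 3 pairs had the same sign in 1031 probe sets that were higher (9.98%) and in 1296 that were lower (12.5%).

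Arrays differed by similar amounts within and between the antibodies. Over probe sets, the median absolute difference between TNFR2 BA and TNFR1 BA arrays of the same replicate number was 1.27, 0.967 and 0.96 log2 units for replicates 1, 2 and 3. Arrays of different replicate numbers that shared an antibody differed by 1.03 to 1.29. The pair of replicate 1 therefore lay as far apart as arrays of different experiments, and the pairs of replicates 2 and 3 lay closer than those. A mean difference over 1 log2 unit was seen in 3747 probe sets and one over 4 in 59, so size alone did not set a gene apart.

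**Figure D1:**
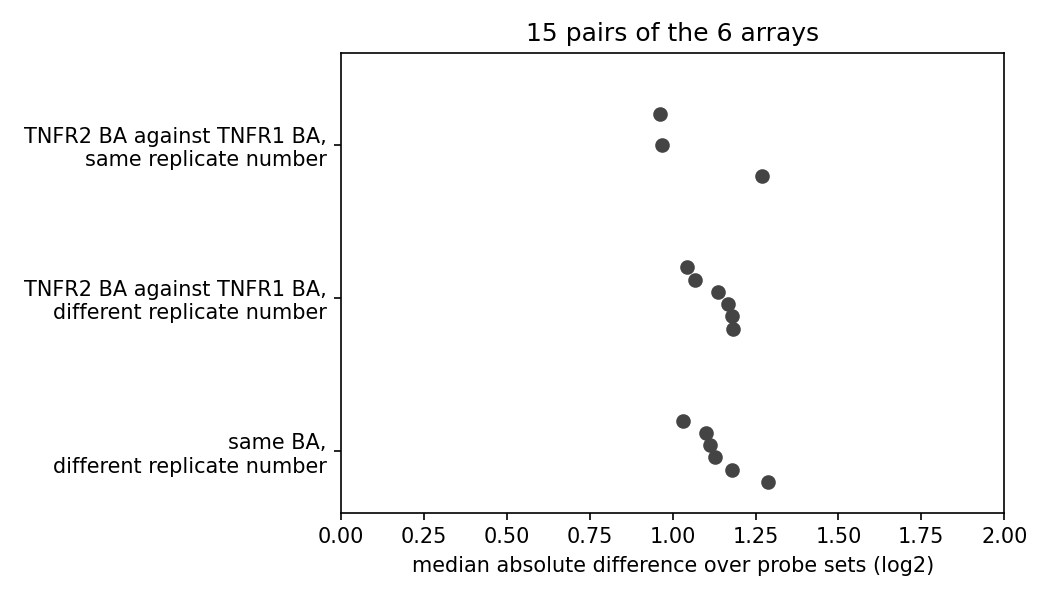
Median absolute difference in log2 signal over 10335 probe sets for each of the 15 pairs of the 6 arrays, 1 point per pair, in rows by whether the pair crosses the antibodies and shares a replicate number. The 3 pairs of the same replicate number sit at 0.96, 0.967 and 1.27, and pairs within an antibody at 1.03 to 1.29.

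What the arrays could resolve depended on the signal. The 95% confidence interval of a difference reached a median of 3.52 log2 units to each side among probe sets with a mean log2 signal of 4 to 6, and 0.738 among those of 12 to 16. The deposited values stop at a lowest value of 2.22, which at least 1 of the 6 arrays held in 1362 probe sets (13.2%), and a difference measured against that value may be understated. Of the brightest probe sets, those with a mean of 10 to 12 had a median difference of -0.13 and those of 12 to 16 a median of -0.12, against -0.04 over all probe sets.

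**Figure D2:**
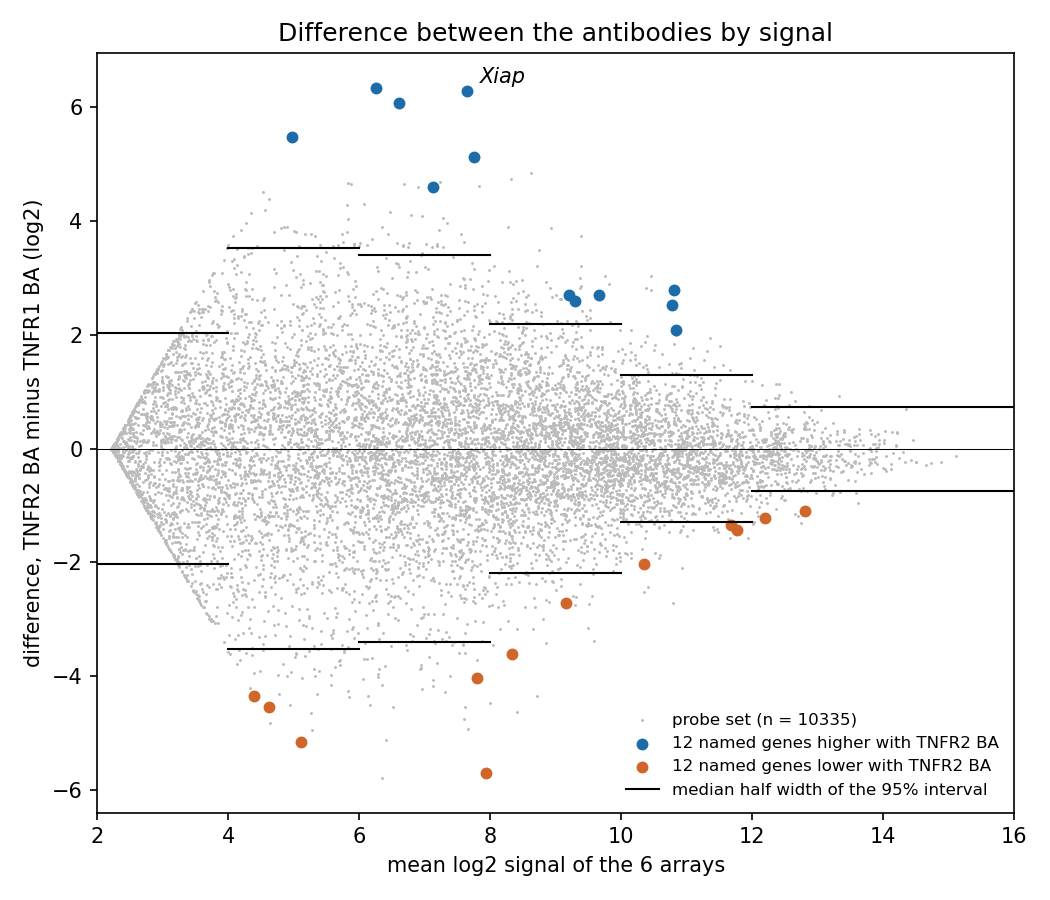
Mean difference TNFR2 BA minus TNFR1 BA in JAK2V617F+ cells (log2, vertical) against the mean log2 signal of the 6 arrays (horizontal), 1 point per probe set, with the 24 named genes in colour. Black bars give the median reach of the 95% interval to each side within each range of signal, from 3.52 at signals of 4 to 6 down to 0.738 at 12 to 16.

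The gene of smallest p was Xiap. On the TNFR2 BA arrays its log2 signals were 9.83, 10.53 and 12.01 for replicates 1, 2 and 3, and on the TNFR1 BA arrays 2.22, 5.69 and 5.64. All 3 TNFR2 BA arrays lay above all 3 TNFR1 BA arrays, with a gap of 4.14 between the groups, and replicate 1 of TNFR1 BA was at the lowest value of the table. The difference was 6.27 log2 units with a standard error of 1.08, a 95% interval of 3.53 to 9.02 and, in limma, an unadjusted p of 0.00189 and an adjusted p of 0.909. An exact two-sided permutation test over the 6 arrays gave p = 0.1, and an exact test that flips the signs of the 3 pairs gave p = 0.25. Each is the smallest p that its design allows and follows from the lack of overlap. Xiap was represented by 1 probe set. Its values were known when the comparison was chosen, so its place at the top is no independent result.

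Named genes were the 12 in each direction with the smallest p among those with the same sign in all 3 pairs. In the higher direction they were Xiap, Cops7a, Ankrd40, Wdr1, Ube2d1, Gna12, Pex19, Akt2, Gosr1, Rif1, Dimt1 and Cmc2. Their measured differences ran from 2.08 to 6.34 log2 units, with unadjusted p-values from limma of 0.00189 to 0.01 and an adjusted p of 0.909 for each. In 11 of the 12 the groups did not overlap, the exception being Dimt1, against 3.26% of all probe sets that were higher without overlap. The genes were picked by p on the same arrays, which favours such separation, so it adds no support.

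Some of these genes belong to signalling and protein turnover. Akt2, a kinase of the insulin and PI3K pathway, was at 11.98, 11.89 and 11.76 with TNFR2 BA and at 8.89, 10.16 and 10.33 with TNFR1 BA, a difference of 2.08 with a standard error of 0.50. Gna12, the alpha subunit of a heterotrimeric G protein, had signals of 10.22, 9.96 and 8.11 against 2.49, 2.44 and 4.33, a difference of 6.34 (SE 1.46). Both genes were thus separated on every array, Akt2 at a bright and even signal under TNFR2 BA and Gna12 within 0.3 of the lowest value on 2 of the 3 TNFR1 BA arrays. Cops7a, a subunit of the COP9 signalosome that removes NEDD8 from cullins, was at 13.13, 11.79 and 11.21 against 9.63, 9.39 and 9.53. Ube2d1, a ubiquitin-conjugating enzyme, was at 9.81, 11.67 and 11.55 against 6.14, 9.52 and 9.30, with a gap of only 0.29 between the groups.

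The other members of the higher group have diverse roles. Wdr1, which helps cofilin to disassemble actin filaments, was at 11.51, 12.76 and 12.34 against 9.82, 8.49 and 9.91. Rif1, a factor in replication timing and repair of DNA breaks, was at 10.85, 10.74 and 10.06 against 7.56, 8.80 and 7.20. Pex19, the receptor that brings membrane proteins to peroxisomes, was at 8.39, 9.57 and 10.94 against 2.22, 5.84 and 2.65. In these 3 genes too the lowest TNFR2 BA array lay above the highest TNFR1 BA array. Gosr1, a SNARE protein of Golgi transport, and Ankrd40 differed by 4.60 (SE 1.10) and 5.12 (SE 1.05). Cmc2, a mitochondrial protein linked to cytochrome c oxidase, was within 0.1 of the lowest value on all 3 TNFR1 BA arrays and ranged from 5.31 to 10.01 with TNFR2 BA.

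In the lower direction the rule named Spata24, Sarnp, Fam118b, Psmc1, 5830448L01Rik, Zfp322a, Tomm7, Atxn7l1, 9330159M07Rik, Prkab2, Mrps21 and Pigx. The groups did not overlap in any of the 12, against 4.77% of all probe sets that were lower without overlap. Here too the choice by p on the same arrays favours separation, which adds no support. The differences ran from -1.09 to -5.71, and limma gave unadjusted p-values of 0.00529 to 0.00841 with an adjusted p of 0.909 for each. A mean signal above 10 was held by 5 of the 12, against 3 of the 12 in the higher direction.

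Psmc1, Tomm7, Mrps21 and Sarnp were bright and differed by small and even amounts. Psmc1, an ATPase of the proteasome, was at 12.46, 12.16 and 12.16 with TNFR2 BA and at 13.72, 13.34 and 13.01 with TNFR1 BA. Tomm7, a part of the mitochondrial import channel, was at 11.84, 11.30 and 11.64 against 12.99, 12.74 and 12.70. Mrps21, a protein of the mitochondrial ribosome, was at 11.00, 11.40 and 10.60 against 12.47, 12.46 and 12.10. The 3 genes had differences of -1.09, -1.22 and -1.34 with standard errors of 0.24 to 0.32. Sarnp, which takes part in mRNA export, lay at 11.12, 10.68 and 11.35 against 12.27, 12.34 and 12.83.

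Wider differences were seen in dimmer genes. Spata24 was the gene of smallest p in this direction, at 9.53, 9.0 and 9.50 against 11.52, 11.08 and 11.49. Prkab2, a regulatory subunit of the energy sensor AMPK, was at 7.53, 3.34 and 6.49 against 11.44, 8.16 and 9.85. Fam118b was at 5.54, 7.14 and 2.60 against 10.98, 10.47 and 10.93. The TNFR1 BA arrays of Spata24 and Fam118b were close to each other, while for Prkab2 replicate 2 was low under both antibodies. For 5830448L01Rik all 3 TNFR2 BA arrays were at the lowest value of the table, so its difference of -4.35 is bounded by that value. Zfp322a, 9330159M07Rik, Atxn7l1 and Pigx, which takes part in making GPI anchors, differed by -5.16, -4.54, -3.61 and -2.71.

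**Figure D3:**
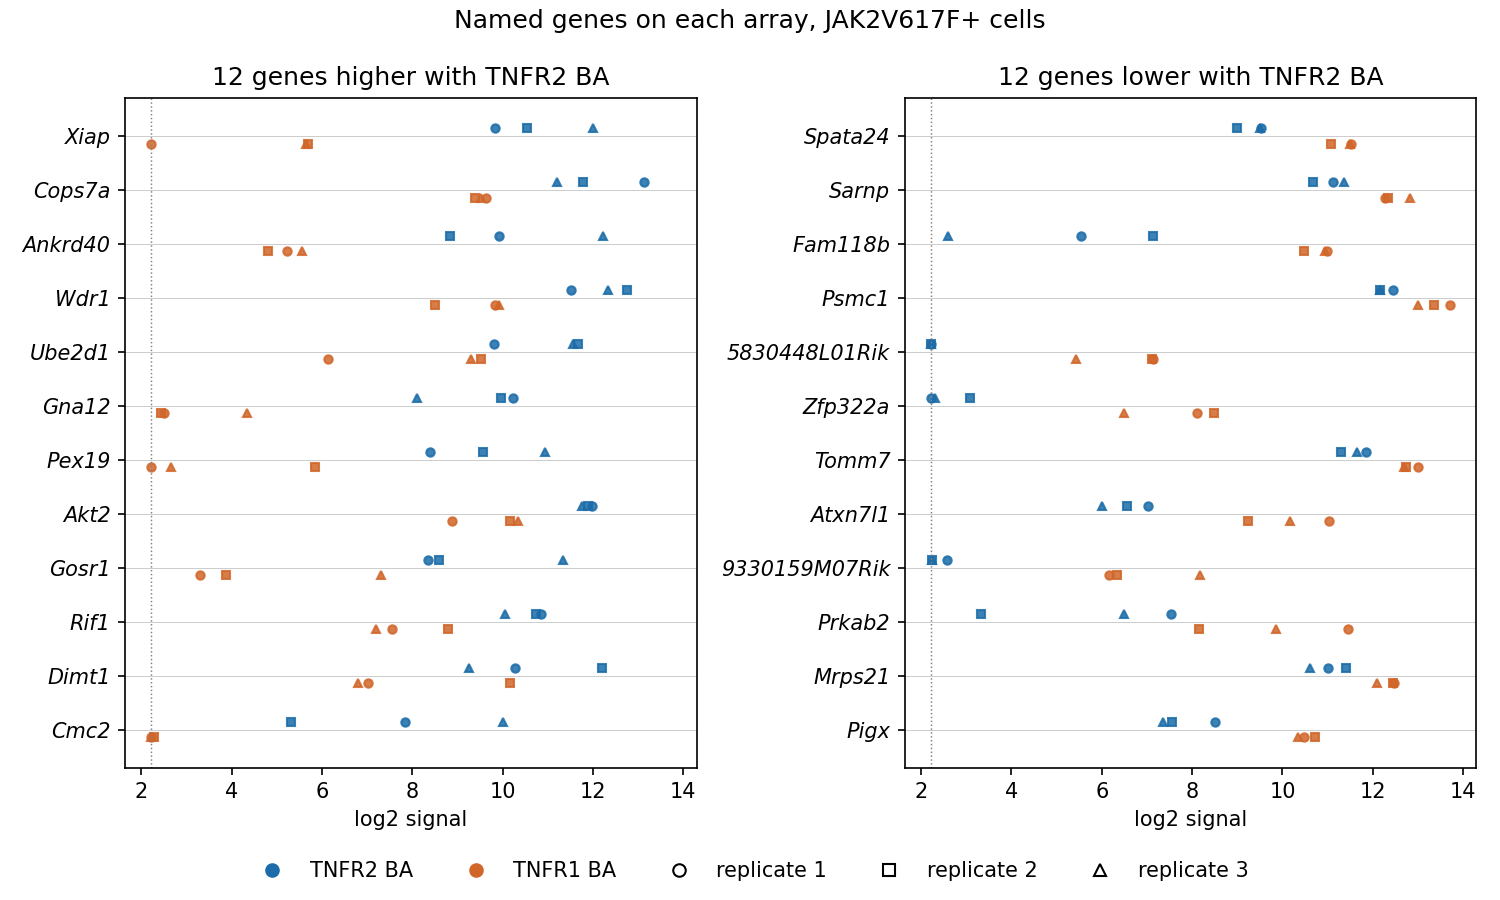
Log2 signal of the 24 named genes on each of the 6 arrays, TNFR2 BA in blue and TNFR1 BA in orange, with a symbol for each replicate number and a dotted line at the lowest value of the table, 2.22. The colours are separated for all genes but Dimt1, and Xiap shows a gap of 4.14 between them. The genes were picked by p on these same arrays.

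JAK2V617F- cells of the same cultures were used to ask whether the difference between the antibodies depended on the genotype. The interaction in limma over 12 arrays called 0 probe sets (0%) at an adjusted p under 0.05, with a lowest adjusted p of 0.973, and 490 (4.74%) had an unadjusted p under 0.05. Within the JAK2V617F- arrays alone 0 probe sets passed and 391 had an unadjusted p under 0.05. Of the 12 genes higher with TNFR2 BA in JAK2V617F+ cells, 7 had a difference of the same sign in JAK2V617F- cells and 5 of the opposite sign. Of the 12 lower ones, 5 had the same sign and 7 the opposite sign. The 24 genes were chosen by their p-values and signs in JAK2V617F+ cells, which also enter the interaction, so these counts are a description.

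Among genes whose difference was higher in JAK2V617F+ than in JAK2V617F- cells, Xiap had the smallest p. In JAK2V617F- cells its signals were 9.70, 7.99 and 11.04 with TNFR2 BA and 11.69, 8.52 and 11.26 with TNFR1 BA, a difference of -0.91 (SE 0.54). Among the antibody-treated groups the low values of Xiap were thus those of TNFR1 BA in JAK2V617F+ cells, and the other 3 lay between 7.99 and 12.01. Untreated arrays did not enter this comparison. The study reports Xiap as lower in untreated JAK2V617F+ than in untreated JAK2V617F- cells, so low Xiap is not shown here to be particular to TNFR1 BA. The difference between the genotypes was 7.18 with a standard error of 1.52, with an unadjusted p of 0.000433 and an adjusted p of 0.973 in limma.

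Akt2 and Zmiz1, a coactivator of several transcription factors, followed in the positive direction. Akt2 differed by 2.08 in JAK2V617F+ cells and by -2.43 (SE 0.80) in JAK2V617F- cells. Zmiz1 was at 12.33, 12.45 and 12.20 against 9.27, 10.27 and 11.60 in JAK2V617F+ cells, a difference of 1.95, and differed by -1.19 in JAK2V617F- cells. In the negative direction the rule named Pbdc1, Cox6b2, a subunit of cytochrome c oxidase, and Commd6, a member of a protein family that interacts with NF-κB. Pbdc1 differed by -1.57 in JAK2V617F+ cells and by 1.05 in JAK2V617F- cells. Cox6b2 differed by -1.78 and 4.32, and Commd6 by -2.59 and 2.64. The unadjusted p-values of these 5 genes in limma were 0.00042 to 0.00101 and none passed the adjustment.

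**Figure D4:**
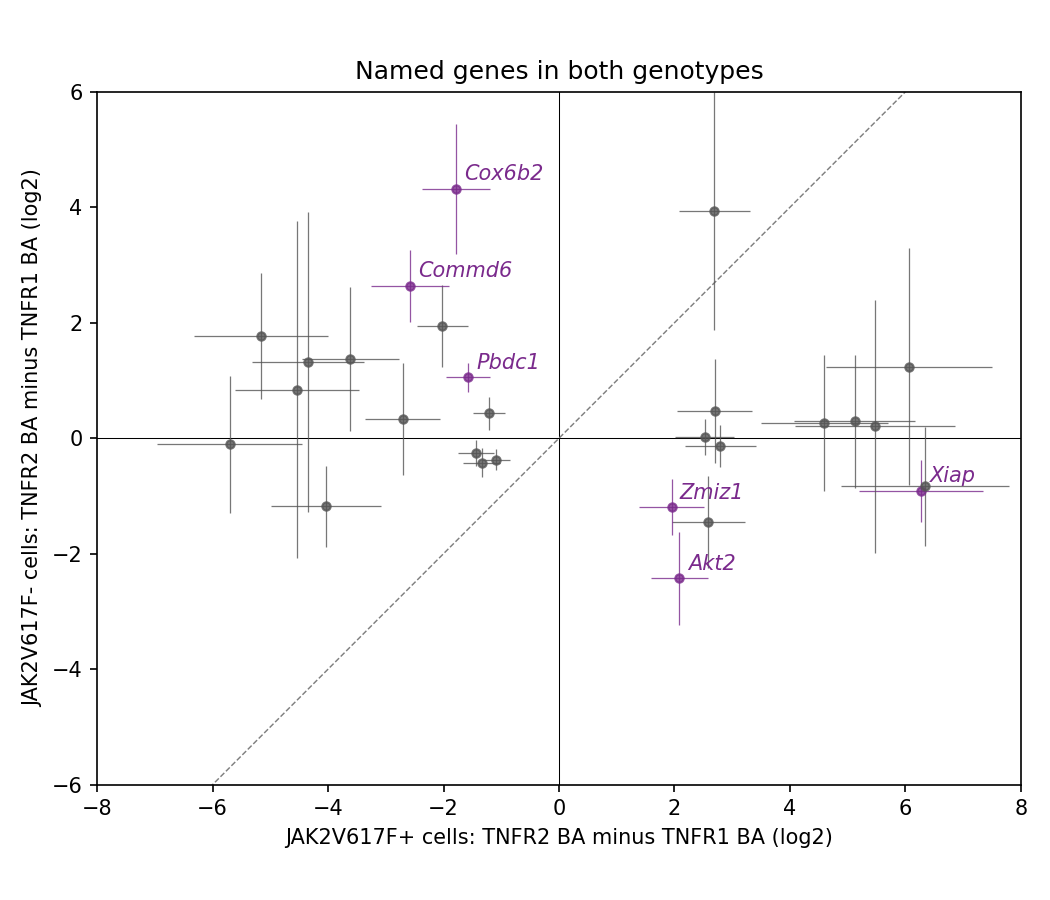
Difference TNFR2 BA minus TNFR1 BA (log2) in JAK2V617F+ cells (horizontal) and in JAK2V617F- cells (vertical), 1 point per named gene, with standard errors as bars and a dashed line where both are equal. The 6 labelled genes are those of smallest p in the difference between genotypes, among them Xiap at 6.27 and -0.91.

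Gene lists for the TNF pathway, apoptosis, JAK2 signalling, cell types and general cell functions were then described. The 29 lists held 407 measured genes, 1 probe set each. Among them 8 had an unadjusted p under 0.05 and were higher (1.97%, against 1.49% of all probe sets) and 4 were lower (0.983%, against 1.93%). The lowest adjusted p of a list gene in limma was 0.909. Of all 9636 genes, 974 were higher (10.1%) and 1228 lower (12.7%) in all 3 pairs, and the median difference was -0.04. These shares are the background for the counts of each list below.

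The receptors themselves were measured under both antibodies. Tnfrsf1a, which encodes TNFR1, was at 8.81, 9.64 and 10.01 with TNFR2 BA and at 11.11, 9.70 and 10.23 with TNFR1 BA, a difference of -0.86 (SE 0.67) that was negative in all 3 pairs. Tnfrsf1b, which encodes TNFR2, was at 11.73, 10.94 and 11.82 against 9.53, 12.62 and 11.41, a difference of 0.31 (SE 0.77). The groups overlapped for both receptors. The intervals were -2.56 to 0.83 for Tnfrsf1a and -1.66 to 2.28 for Tnfrsf1b, so both intervals reach beyond 1 log2 unit. Adam17, the protease that sheds TNF and its receptors, was at 5.90, 5.46 and 5.66 against 9.0, 6.46 and 7.71 (difference -2.05, SE 1.23). Tnf itself was not measured. Of the 12 measured genes of this list, Adam17 included, 10 had a difference below 0 and the median was -0.48, while the medians within replicates 1, 2 and 3 were 0.10, -0.03 and -0.15. In all 3 pairs 1 gene was higher and 2 were lower.

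In the complexes that form on TNFR1, none of 22 genes had an unadjusted p under 0.05, 1 was higher and 2 were lower in all 3 pairs, and the median difference was -0.05. Tradd, the adaptor that binds the death domain of TNFR1, was at 10.68, 9.52 and 6.76 with TNFR2 BA and at 10.97, 10.89 and 11.04 with TNFR1 BA. Its groups did not overlap, although replicate 1 differed by little, and the difference was -1.97 with a standard error of 0.89. Fadd, the adaptor to caspase-8, differed by -0.88 (SE 0.61) and Casp8 by 0.27 (SE 0.52). The TRAF adaptors and the noncanonical NF-κB arm, which TNFR2 uses, had 2 of 10 genes higher in all 3 pairs, against 10.1% of all genes. They were Traf1 (difference 0.94, SE 0.99) and Birc3 (2.56, SE 1.30).

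The IAP family was the list to which Xiap belongs. Of its 9 measured genes 4 were higher in all 3 pairs, Xiap, Birc3, Diablo and Xaf1, and 1 was lower, Birc5. The shares of all genes were 10.1% higher and 12.7% lower. Xaf1, which binds and antagonizes XIAP, was at 6.86, 7.38 and 11.00 with TNFR2 BA and at 6.29, 6.07 and 4.99 with TNFR1 BA (difference 2.63, SE 1.52). Birc3, which encodes cIAP2, was at 9.61, 7.42 and 10.57 against 4.04, 6.69 and 9.21, so its difference of 2.56 rested mainly on replicate 1. Birc2, which encodes cIAP1, was at 7.85, 4.58 and 8.90 against 7.66, 8.28 and 8.62, a difference of -1.08 (SE 1.26) set by replicate 2 of TNFR2 BA. Diablo, the mitochondrial antagonist of IAPs, differed by 0.78 (SE 0.54). Birc5, which encodes survivin, was at 10.79, 12.21 and 10.85 against 12.05, 12.29 and 12.28 (difference -0.92, SE 0.40). Apart from Xiap, none of the 9 had an unadjusted p under 0.05 in limma, and the list median of 0.08 was near that of all genes.

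Other genes of cell death had wide intervals. Casp9, the initiator caspase that XIAP inhibits, was at 8.96, 7.05 and 9.21 against 6.76, 6.30 and 4.99, without overlap (difference 2.39, SE 1.24). Bcl2l11, which encodes the death protein BIM, was at 5.15, 2.22 and 2.22 against 10.68, 2.22 and 7.69 (difference -3.67, SE 1.58). Of 14 caspases and executioners 1 was higher and 1 lower in all 3 pairs, and of 12 BCL2 family genes also 1 and 1.

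Mapk8, which encodes JNK1, was at 6.83, 9.10 and 8.61 with TNFR2 BA and at 3.37, 7.10 and 9.76 with TNFR1 BA. The groups overlapped, replicate 3 was lower with TNFR2 BA, and the difference was 1.44 with a standard error of 1.31 and a 95% interval of -1.91 to 4.78. Without replicate 1 of TNFR1 BA the value was -0.25. Of the 24 measured genes of the JNK, p38 and ERK cascade 1 was higher and 2 were lower in all 3 pairs, with a list median of 0.45.

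NF-κB target genes had the highest median of the lists, 0.80 over 20 measured genes. The medians of the single pairs were lower, 0.13, 0.52 and 0.41 for replicates 1, 2 and 3, since the 0.80 is taken over each gene's mean of 3 differences. In all 3 pairs 7 of the 20 were higher and 2 were lower, against 974 and 1228 of 9636 genes, and 0 had an unadjusted p under 0.05. Icam1, an adhesion molecule, was at 9.75, 10.20 and 11.35 with TNFR2 BA and at 5.71, 9.89 and 8.98 with TNFR1 BA (difference 2.24, SE 0.89). Ccl4, a chemokine, was at 5.68, 5.56 and 4.68 against 4.60, 3.25 and 3.25. Tnfaip2 was at 9.89, 8.65 and 8.85 against 8.01, 7.63 and 8.26. The groups did not overlap for Ccl4, Tnfaip2 and Traf1, against 314 of all 9636 genes that were higher without overlap. None of the 3 had an unadjusted p under 0.05. Traf1 and Birc3, among the 7 higher genes, were also counted in lists above. In JAK2V617F- cells the list median was 0.29, against 0.08 over all genes. Sod2, the mitochondrial superoxide dismutase, differed by 1.57 (SE 1.30). The 2 lower targets were Nfkbia, which encodes the inhibitor IκBα (-0.71, SE 0.58), and Gadd45b (-2.43, SE 1.50).

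Of the 12 measured NF-κB subunits and inhibitors, 3 of which are also in the list of targets, 0 were higher and 2 were lower in all 3 pairs. Rel, which encodes the subunit c-Rel, was at 2.86, 5.52 and 7.68 with TNFR2 BA and at 9.29, 8.50 and 8.24 with TNFR1 BA, without overlap (difference -3.32, SE 1.53, unadjusted p of 0.0808 in limma). The pairs of Rel differed most in replicate 1 and least in replicate 3.

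In the list of JAK kinases, STAT factors and STAT5 targets the median was 0 over 23 genes. Ccnd2, which encodes cyclin D2, was at 12.34, 11.86 and 10.89 against 10.51, 10.38 and 10.32 (difference 1.30, SE 0.43, unadjusted p of 0.0286 in limma). Jak2 was at 9.86, 8.33 and 9.93 against 5.73, 8.48 and 9.09 and overlapped.

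Of the 32 measured genes of the cell cycle and DNA replication 6 were higher and 3 lower in all 3 pairs. The shares of all genes were 10.1% and 12.7%, and the list median was 0.38. Rrm1, the large subunit of ribonucleotide reductase, was at 13.01, 12.64 and 12.45 with TNFR2 BA and at 11.59, 11.82 and 11.36 with TNFR1 BA (difference 1.11, SE 0.29, unadjusted p of 0.0118 in limma). Rrm2, its small subunit, was at 12.74, 13.33 and 13.10 against 12.47, 12.72 and 12.57 (difference 0.47, SE 0.24). Ccna2, which encodes cyclin A2, was at 13.09, 12.63 and 12.56 against 11.92, 12.32 and 11.79 (difference 0.75, SE 0.30). Without overlap the list held 3 higher and 2 lower genes, against 314 and 475 of all 9636 genes. Rrm1, Rrm2 and Ccna2, all bright, did not overlap between the antibodies, although the closest arrays of Rrm2 were at 12.74 and 12.72. Cdk1, the kinase of mitosis, ran the other way, at 10.35, 10.54 and 10.36 against 11.66, 11.24 and 11.75 (difference -1.14, SE 0.39, unadjusted p of 0.0327). In JAK2V617F- cells Rrm1 differed by 0.14, Rrm2 by -0.60, Ccna2 by -0.46 and Cdk1 by 0.04.

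The sorted cells were checked against markers of the gate and of other cell types. Kit ranged from 6.94 to 9.95 with TNFR2 BA and from 3.71 to 9.04 with TNFR1 BA, where replicate 1 was the lowest, although all samples were sorted as Kit+. The gene lists of other lineages were not all low, and whether cells that the gate removes were present was not tested. The B cell genes Cd79a and Ebf1 were at 2.22 on all 6 arrays and 4 of the 7 measured B cell genes had a mean under 4, but the mean of that list was 2.52 to 3.20 in replicates 1 and 3 and 4.74 and 4.67 in replicate 2 of TNFR2 BA and TNFR1 BA. The 6 measured genes of T and NK cells had means of 6.20 to 6.60 with TNFR2 BA and of 6.56 to 6.93 with TNFR1 BA. The 14 neutrophil granule genes were bright, with means of 9.55 to 12.14 and of 9.71 to 12.29, lowest in replicate 2 under both antibodies. The part of these cell types in the differences between the antibodies was not tested. The mast cell and basophil genes were bright, with a mean log2 signal over 12 genes of 11.62 to 12.13 with TNFR2 BA and of 10.91 to 12.12 with TNFR1 BA, and the ranges overlapped. In bulk samples a smaller number of cells of a type and less RNA per cell cannot be told apart.

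Mast cell and basophil genes had 5 of 12 higher and 0 lower in all 3 pairs, against 10.1% and 12.7% of all genes. Their median was 0.29. Tpsab1, a mast cell tryptase, was at 13.38, 12.02 and 12.50 with TNFR2 BA and at 12.43, 10.68 and 12.23 with TNFR1 BA (difference 0.86, SE 0.33, unadjusted p of 0.0479 in limma). Cd200r3, a receptor of mast cells and basophils, was at 9.92, 10.01 and 10.01 against 9.72, 4.68 and 8.36. Cpa3, the mast cell carboxypeptidase, and Hdc, which makes histamine, differed by 0.29 (SE 0.18) and 0.70 (SE 0.47). The receptor chains for IgE had differences of -0.52 for Ms4a2 and -0.30 for Fcer1a, and the basophil protease Mcpt8 differed by -0.06, all 3 of a sign that turned when single arrays were left out. The part of mast cell content in the differences of other genes was not tested.

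Markers of other lineages moved in both directions. Csf1r, the receptor for M-CSF, was at 9.41, 12.41 and 9.02 with TNFR2 BA and at 6.97, 10.99 and 4.90 with TNFR1 BA (difference 2.66, SE 0.82, unadjusted p of 0.0213), while 4 of 17 genes of the monocyte, macrophage and dendritic cell list were lower in all 3 pairs and Csf1r was the 1 that was higher. In JAK2V617F- cells Csf1r differed by -4.29. Of the erythroid genes, Ank1, an ankyrin of the red cell membrane, was at 9.99, 11.04 and 6.93 against 2.36, 8.52 and 5.21 (difference 3.96, SE 1.55, unadjusted p of 0.0494), and Rhag, another membrane protein, was at 5.00, 2.49 and 6.14 against 8.45, 7.33 and 7.30 (difference -3.15, SE 1.40). Of the megakaryocyte genes, Pf4 was lower in each pair, at 10.55, 12.10 and 13.39 against 11.91, 12.69 and 14.05 (difference -0.88, SE 0.29, unadjusted p of 0.0298), and Selp, which encodes P-selectin, was higher (difference 2.61, SE 0.99, unadjusted p of 0.0448). None of the 14 neutrophil granule genes had the same sign in all 3 pairs.

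Further list genes with an unadjusted p under 0.05 in limma were Keap1, Nr1d2 and Klrd1. Keap1, the sensor that holds the antioxidant factor NRF2 in check, was at 11.98, 12.20 and 11.87 with TNFR2 BA and at 10.43, 10.99 and 11.21 with TNFR1 BA (difference 1.14, SE 0.36). Nr1d2, a repressor of the circadian clock, was at 2.75, 2.69 and 2.88 against 5.83, 8.27 and 6.16 (difference -3.98, SE 1.14). Klrd1, a receptor of NK cells, was dim on all arrays, at 2.22 to 2.69 against 3.14 to 5.59 (difference -2.07, SE 0.76). The groups did not overlap for any of the 3, against 314 genes higher and 475 lower without overlap among all 9636. The 3 were picked by p on the same arrays, which favours such separation, so it adds no support.

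The study also names Prdx2, Itm2a and Asb17, whose raised expression it reports as reversed by either antibody, and did not investigate them. Prdx2, a peroxiredoxin, was at 2.22, 2.22 and 6.84 against 7.41, 2.22 and 2.22 (difference -0.19, SE 1.91). Itm2a differed by -0.38 (SE 0.92). Asb17 was at the lowest value on 4 of the 6 arrays, with 7.08 in replicate 1 of TNFR2 BA and 7.14 in replicate 1 of TNFR1 BA. None of these 3 differed beyond the spread of the arrays.

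**Figure D5:**
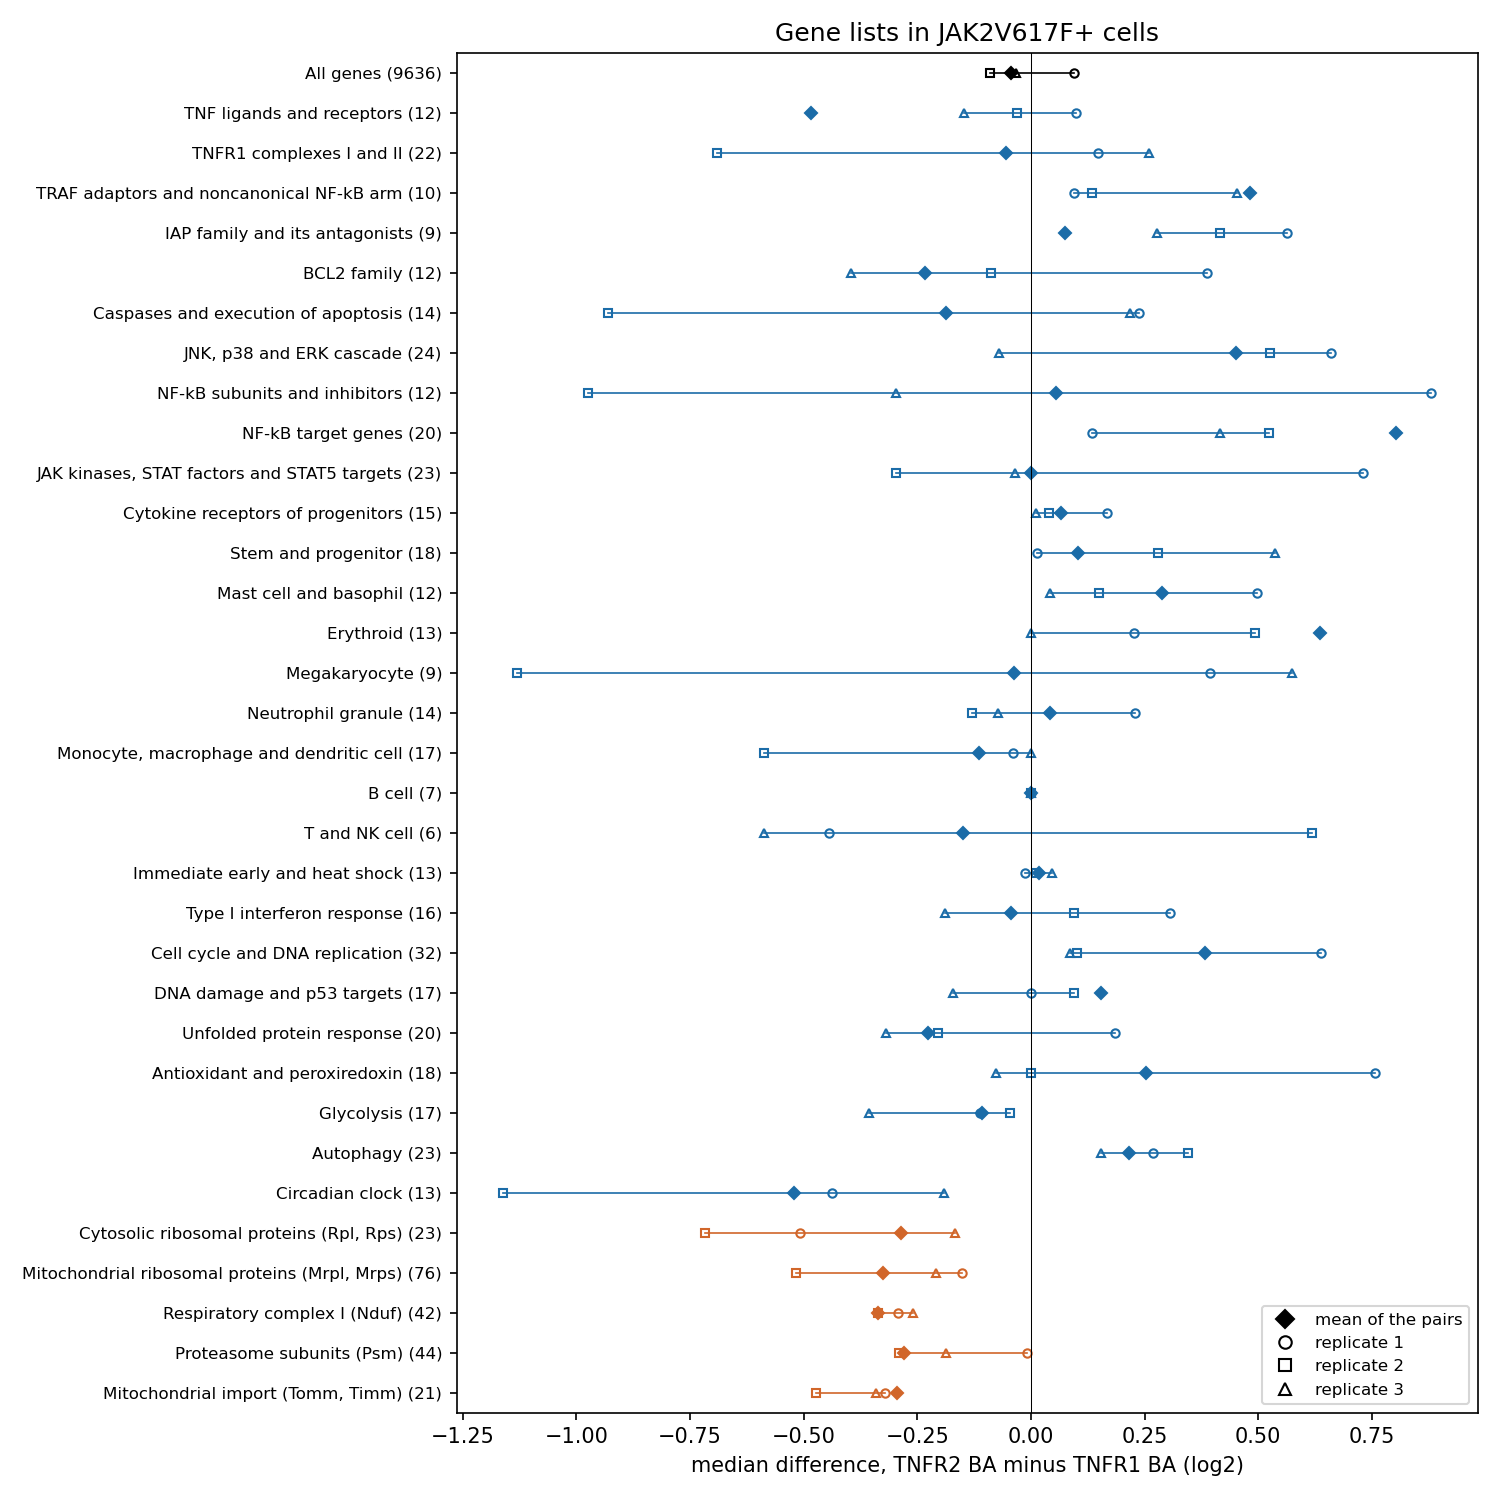
Median difference TNFR2 BA minus TNFR1 BA in JAK2V617F+ cells (log2) for each gene list, with the number of measured genes in brackets. Diamonds are the median of the genes' mean differences and open symbols the medians within replicates 1, 2 and 3. Blue lists were written from gene function, with earlier results of these data known. The 5 orange families were chosen by symbol after the values were seen. NF-κB target genes lie highest at 0.80, and all genes at -0.04.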

How the data were processed

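Gene expression was read on Affymetrix Mouse Expression arrays. The log2 signals were used as the authors deposited them, 1 value for each array and probe set. The submitters' processing notes name Affymetrix Expression Console. How the arrays were normalized, and how the 10335 probe sets were picked, is not stated in these sources. RNA was amplified before labelling. No detection calls came with the values, and the number of arrays limits the precision. The platform annotation gave 9651 probe sets a single gene symbol and 27 more than 1, and 657 had no symbol. Entrez IDs of 9625 of the probe sets with a single symbol were found in a gene table of GRCm38.p6.

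TNFR2 BA and TNFR1 BA arrays of JAK2V617F+ cells were compared with limma 3.58.1 in R 4.3.3, with the replicate number as a block, a trend of variance on signal and Benjamini-Hochberg adjustment over all probe sets (threshold 0.05). The genotypes were compared by an interaction over 12 arrays. Named genes were the 12 per direction of smallest p with the same sign in all 3 pairs, 3 per direction for the interaction, genes the study names and members of gene lists. Lists used 1 probe set per gene, that of highest mean. Members and lists were chosen with earlier results of these data known. The fits were tested on simulated data. As alternatives, the block was dropped, other arrays joined the fit, the variance trend was dropped, arrays were quantile normalized or weighted, dim probe sets were removed, paired t-tests were run and arrays were left out.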

Additional observations from a re-analysis of the deposited data

How the results depend on the processing

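No probe set had an adjusted p under 0.05 in any alternative run, for the antibodies in JAK2V617F+ cells or for the difference between genotypes. The number with an unadjusted p under 0.05 was 353. It was 535 with the 12 arrays of both genotypes and 544 with 17 arrays of 6 groups and a replicate block, and it ranged from 245 to 545 when single replicates or arrays were left out. The highest of these, without replicate 3 of TNFR2 BA, shared 186 probe sets with the 353. Without the replicate block 359 had an unadjusted p under 0.05, of which 259 were shared, and no adjusted call changed. Whether the replicate number pairs the arrays was checked by the correlation of their deviations from the group means, which was -0.0073, 0.103 and 0.164 for numbers 1, 2 and 3 and -0.173 to 0.0881 between different numbers; the pairing therefore rests on the study's description of independent experiments. Xiap kept its direction, with 5.12 to 6.99 when arrays were left out, and its adjusted p in limma ranged from 0.179 with 17 arrays to 1 without replicate 1 of TNFR1 BA. Signs of small differences depended on single arrays. Leaving out whole replicates gave -0.027 to 0 for Asb17, 0.42 to 2.73 for Mapk8, -2.59 to 2.31 for Prdx2, -1.34 to 0.77 for Itm2a, -0.64 to 1.30 for Tnfrsf1b, -0.12 to 0.68 for Casp8, -0.32 to 0.15 for Mcpt8 and -1.75 to 0.23 for Birc2. Leaving out single arrays without the block turned the sign of 12 genes. Asb17 was 0.79 without TNFR2 BA replicate 2 or 3, with a range of -1.64 to 1.62. Prdx2 was 0.58 without TNFR2 BA replicate 1 or 2 and 1.54 without TNFR1 BA replicate 1. Without that TNFR1 BA array, Mapk8 was -0.25, Tnfrsf1b -0.52, Casp8 -0.014, Fadd 0.14 and Kit -0.40. Itm2a was 0.49 without TNFR1 BA replicate 2, and Birc2 was 0.19 without TNFR2 BA replicate 2. Without TNFR1 BA replicate 3, Ms4a2 was 0.025, Fcer1a 0.0085 and Mcpt8 0.51. Fcer1a was 0.17 without TNFR2 BA replicate 2, and Mcpt8 was 0.21 and 0.18 without TNFR2 BA replicate 1 and 2. Array weights gave 0.52 for Prdx2 and -0.056 for Tnfrsf1b. The cause was not tested.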

Other observations

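Gene families of mitochondria, ribosomes and protein turnover leaned lower with TNFR2 BA in JAK2V617F+ cells. These families were picked by their gene symbols after the values had been seen, so they are described and not tested. Each was taken whole by symbol, without a check that every gene encodes a subunit of the complex named. Of 42 genes of respiratory complex I (symbols starting with Nduf), which passes electrons from NADH into the respiratory chain, 19 were lower and 1 was higher in all 3 pairs (45.2% and 2.38%), against 12.7% and 10.1% of all 9636 genes. The median difference was -0.34, with -0.29, -0.34 and -0.26 in replicates 1, 2 and 3, and 0.02 in JAK2V617F- cells. Ndufb10 was at 11.74, 12.35 and 10.82 with TNFR2 BA and at 12.57, 13.08 and 12.74 with TNFR1 BA, and Ndufa1 was at 12.32, 12.37 and 12.58 against 13.23, 12.91 and 13.20. Both were separated between the antibodies, and both stand here because of their values.

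The medians of 4 other families were also below 0. Only mitochondrial import lay further below 0 than complex I in every pair, at -0.32, -0.47 and -0.34. Of 76 mitochondrial ribosomal proteins 17 were lower and 4 higher in all 3 pairs (median -0.33), of 44 proteasome subunits 14 and 2 (median -0.28, with -0.0093, -0.29 and -0.19 in replicates 1, 2 and 3), of 21 genes of mitochondrial import 5 and 1 (median -0.29), and of 23 cytosolic ribosomal proteins 6 and 2 (median -0.29). In JAK2V617F- cells the medians of these 4 families were 0.26, 0.13, 0.16 and 0.17. Psma6, a subunit of the proteasome core, was at 12.68, 12.83 and 12.83 against 13.41, 13.50 and 13.19. Signal level moves with this pattern. Among all genes with a mean log2 signal of at least 10, 19.7% were lower and 9.85% higher in all 3 pairs and the median was -0.13, while the complex I genes of that brightness had 45.2% and 0% and a median of -0.35. The 4 other families, in the order above, had 39, 33, 11 and 9 genes of that brightness. Of these 33.3%, 36.4%, 36.4% and 44.4% were lower in all 3 pairs, and 5.13%, 0%, 9.09% and 0% were higher. After quantile normalization of the 6 arrays, an alternative chosen after seeing the data, the median of complex I was -0.31 and that of all genes -0.02. The genes of a family share arrays and are not independent, and the part of signal level in the lean was not tested beyond these values.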
